A study of Mus musculus with 8 samples.

Results

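A set of 9 transport genes of the lung epithelium was examined: Scnn1a, Scnn1b and Scnn1g, Cftr, Aqp1, Aqp3, Aqp4 and Aqp5, and Atp1b1. They were chosen by name as genes of alveolar fluid and ion transport, with earlier results of these data known. Each of the 9 had 1 probe set annotated with its symbol alone, among 19938 genes measured in the same way. RNA came from Epcam(+) cells purified on magnetic beads from mouse lungs at stage E18.5 and was labelled with biotin for single-colour arrays. The knockout arrays (Mst1/2 CKO, n = 4) are of lungs in which ShhCre deleted the Hippo kinases Mst1 and Mst2 in epithelial progenitors, and the control arrays (n = 4) are of lungs that the labels call only Control. The labels give neither the alleles of the controls nor whether an array holds 1 animal or a pool, so the p-values measure the spread between these arrays. Values are log2 expression, and each difference is knockout minus control with limma's standard error (SE).

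Before birth the lung is filled with liquid that its epithelium secretes, driven by chloride leaving the cell through channels such as Cftr. Around birth the epithelium turns to absorption: sodium enters through the epithelial sodium channel, built of the subunits encoded by Scnn1a, Scnn1b and Scnn1g, is pumped out by the Na,K-ATPase, and draws water after it. Aquaporins are the water channels of this barrier, with Aqp5 known from the apical face of flat type 1 cells, Aqp1 from the capillary endothelium, and Aqp3 and Aqp4 mainly from airway epithelium.

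All 3 subunits of the sodium channel were higher in knockout cells, the chloride channel Cftr was 3.16-fold lower, the pump subunit Atp1b1 was 1.22-fold lower, and of the 4 aquaporins among them only Aqp5 passed the test. In all, 4 genes rose, 2 fell and 3 did not pass, so 66.7% of them were called at an adjusted p under 0.05 (limma, Benjamini-Hochberg over all genes), against 18.8% of all genes. The background is 8.60% for rises and 10.2% for falls. Except for Cftr (level percentile 70.8), the called genes were among the brightest, at level percentiles 96.6 to 99.8. Genes above the median level, fitted alone, gave 3076 calls, against 3746 among all genes. The 18.8% is therefore not the share among equally bright genes, which was not computed. The groups did not overlap in 6 of the 9 genes, against 22.1% of all genes. The median difference was −0.01 over the 9 genes and −0.016 over all genes. A change of at least 1.5-fold was seen in 3 of them, Scnn1b, Scnn1g and Cftr, against 5.28% of all genes. Because the genes were chosen with earlier results known, these shares describe the set and do not test for an excess over background.

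**Figure D1:**
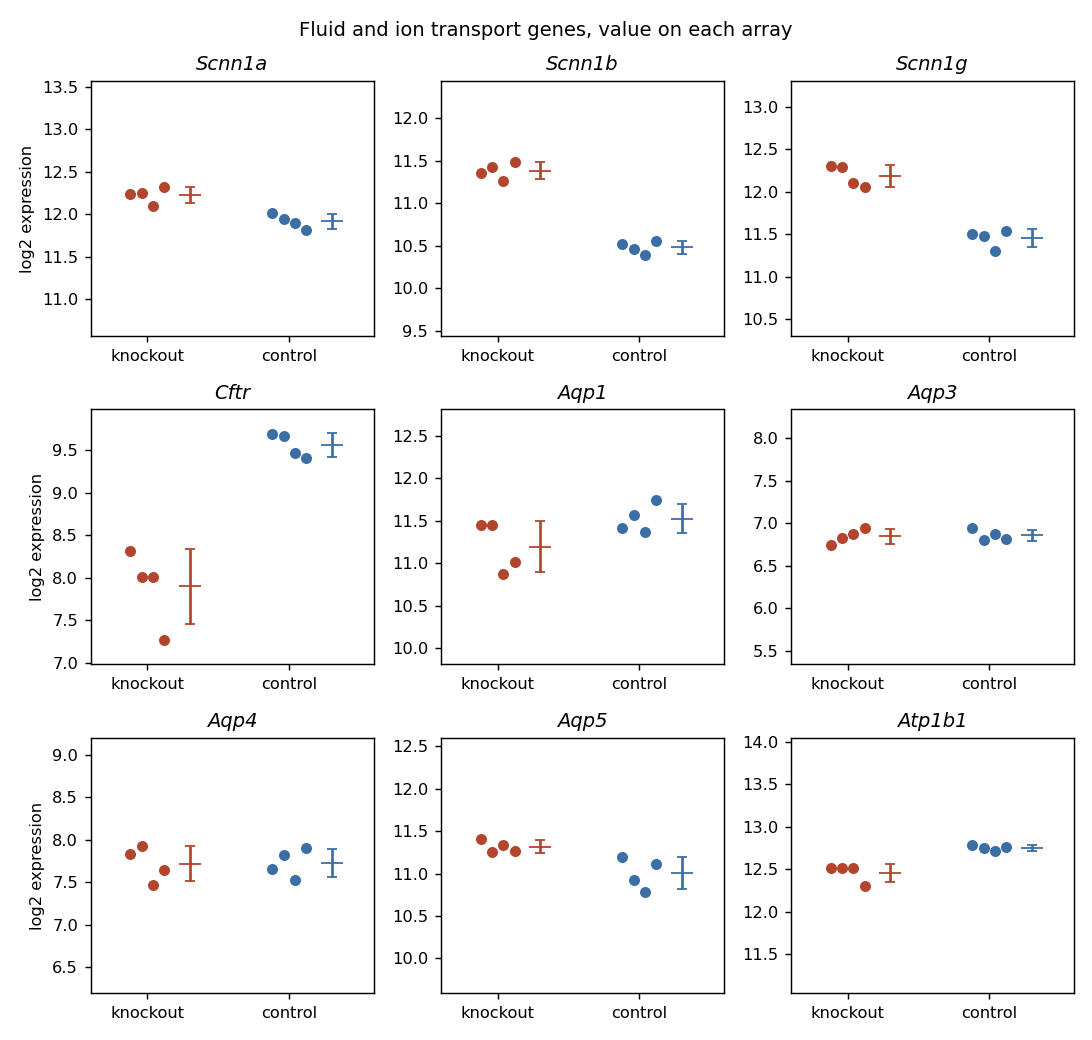
Log2 expression of the 9 transport genes on each array, knockout left and control right, with the mean and SD (n = 4) beside the points; every panel spans the same height on the log2 scale. Scnn1b, Scnn1g and Cftr show the widest gaps between the groups, while the points of Aqp1, Aqp3 and Aqp4 overlap.

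As facts of the whole series, Epcam, the protein used for selection, averaged 10.07 ± 0.167 in knockout and 10.06 ± 0.147 in control arrays (SD, n = 4 each). Stk4, which encodes Mst1, was lower by 1.23-fold (−0.30, SE 0.076, adjusted p = 0.0188 in limma's test), although its probe set may lie outside the deleted part, and the Mst2 gene Stk3 was not analysed here. Markers of the alveolar cell types moved apart: 9 of 13 type 1 markers rose and 0 fell, and 11 of 12 type 2 markers fell and 0 rose. Of the airway lists, 5 of 8 club cell and 5 of 10 ciliated cell markers fell and 0 rose, with means lower by 0.60 and 0.37 (−0.60 and −0.37), and 3 of 7 basal cell markers rose and 0 fell. The endothelial marker mean was 9.54 to 9.63 in knockout and 9.16 to 9.49 in control arrays, with rises in 5 of 10 endothelial markers (Pecam1, Tek, Tie1, Esam and Egfl7) and in 4 of 12 mesenchymal markers (Col1a2, Pdgfrb, Fn1 and Vim), whose mean was 8.65 to 9.16 in knockout and 8.36 to 8.80 in control arrays. Pecam1, an endothelial adhesion protein, averaged 9.27 in knockout and 8.84 in control arrays. With the endothelial marker mean as a covariate, a mean that itself separates the groups, Scnn1b was still called (0.78, adjusted p = 0.016 in limma's test) and the other 5 called members were not. The part of other cells in the changes below was not tested beyond the values given. Knockout replicate 4 stood apart from the other knockout arrays, with the lowest array weight in limma (0.32, against 0.72 to 2.23 in the others), and all 6 calls among the members held without it. In such bulk RNA, fewer cells of a type and less RNA per cell cannot be told apart.

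Scnn1b encodes the beta subunit of the sodium channel, which with the gamma subunit carries the channel to the cell surface. It read 11.36, 11.43, 11.26 and 11.49 in knockout arrays and 10.52, 10.46, 10.39 and 10.56 in control arrays. Every knockout value lay above every control value, and the gap was far wider than the spread within either group. Scnn1b rose 1.87-fold (0.90, SE 0.067, adjusted p = 1.46e-05 in limma's test) and remained called under all 18 alternatives.

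Scnn1g encodes the gamma subunit. Its values were 12.31, 12.29, 12.10 and 12.06 in knockout arrays and 11.50, 11.48, 11.30 and 11.54 in control arrays. The groups were again fully separate. The rise was 1.67-fold (0.74, SE 0.079, adjusted p = 1.02e-04 in limma's test).

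Scnn1a encodes the alpha subunit, which forms the pore together with the others and without which the channel conducts poorly. It read 12.23, 12.25, 12.10 and 12.32 in knockout arrays and 12.01, 11.94, 11.89 and 11.81 in control arrays. The groups did not overlap, but the nearest values of the 2 groups were close. Scnn1a rose 1.24-fold (0.31, SE 0.067, adjusted p = 0.00746 in limma's test), a call that ended without knockout replicates 1 and 4 together (0.27, adjusted p = 0.0621).

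The estimated changes of the subunits were unequal, which passed limma's test but not the permutation test after adjustment. The log ratio of Scnn1b to Scnn1a was higher in knockout than in control arrays by 0.59 (95% interval 0.44 to 0.73), and that of Scnn1g to Scnn1a by 0.43 (0.22 to 0.63). In both, the 4 knockout arrays lay apart from the 4 control arrays, with exact two-sided permutation p = 0.0286, the smallest that 4 against 4 arrays allow, and adjusted p = 0.0514 over the 9 pairs of members compared. Limma's test of the same log ratios among all genes gave adjusted p = 1.37e-04 and 0.00738. Without any 1 of knockout replicates 1 to 3 or control replicates 1 to 4, the difference in the Scnn1g to Scnn1a ratio was 0.38 to 0.49 (unadjusted exact permutation p = 0.0571). Scnn1b and Scnn1g differed from each other by 0.16 (95% interval −0.01 to 0.34, exact permutation p = 0.0571, 0.0735 adjusted over the pairs), an interval that holds both equal change and a larger rise of Scnn1b.

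**Figure D2:**
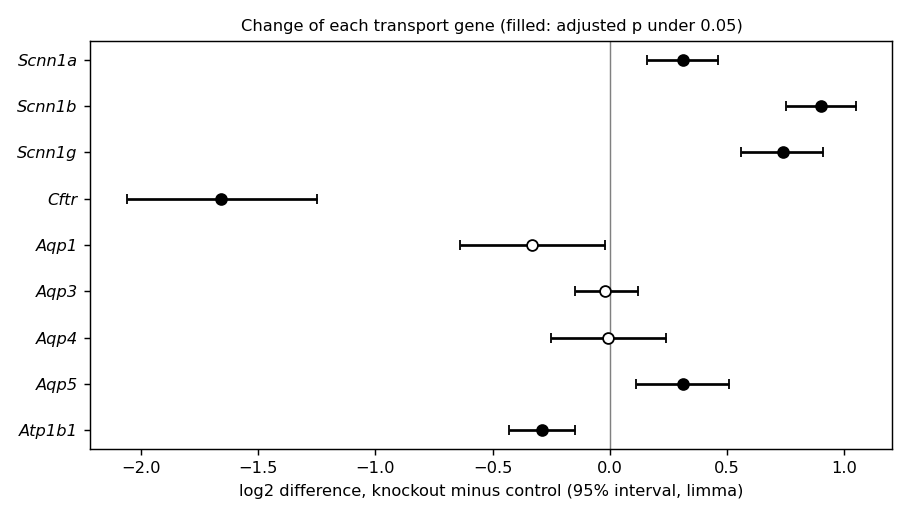
Log2 difference, knockout minus control, of each transport gene with its 95% interval from limma; filled points passed at an adjusted p under 0.05. Scnn1b (0.90) and Scnn1g (0.74) lie to the right of Scnn1a and Aqp5 (0.31 each), and Cftr (−1.66) lies far to the left.

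Scnn1g and Scnn1b are next to each other on mouse chromosome 7 with no other protein-coding gene between them in the RefSeq gene table, whereas Scnn1a is on chromosome 6. Their promoters are shown because these neighbours rose together. Each sequence runs 5′ to 3′ from 250 bases before to 50 bases after the gene's start, taken from RefSeq on build GRCm38.p6, and capitals mark each GC box, searched as GGGCGG on both strands.
Scnn1g promoter, chr7:121734229-121734528 (+ strand): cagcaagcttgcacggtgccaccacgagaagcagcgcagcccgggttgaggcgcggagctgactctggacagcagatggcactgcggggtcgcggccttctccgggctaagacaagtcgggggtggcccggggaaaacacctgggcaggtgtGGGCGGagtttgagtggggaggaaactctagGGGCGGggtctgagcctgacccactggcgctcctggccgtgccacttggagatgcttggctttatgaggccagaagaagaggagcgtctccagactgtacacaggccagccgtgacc
Scnn1b promoter, chr7:121864788-121865087 (+ strand): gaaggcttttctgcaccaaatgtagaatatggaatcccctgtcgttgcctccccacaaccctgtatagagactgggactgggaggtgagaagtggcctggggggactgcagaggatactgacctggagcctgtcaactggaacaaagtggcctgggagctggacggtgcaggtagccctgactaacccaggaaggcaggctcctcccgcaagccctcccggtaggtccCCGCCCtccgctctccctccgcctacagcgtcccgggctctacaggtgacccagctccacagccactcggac

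Both promoters were rich in G and C, with 64.7% in Scnn1g and 61.7% in Scnn1b, against a median of 52.7% over the 32851 promoters of the table. Scnn1g held 18 CG pairs and 2 GC boxes, and Scnn1b held 10 CG pairs and 1 GC box, where the median promoter held 7 CG pairs. A GC box is the sequence bound by Sp1-type factors. It was present in all 7 member promoters looked at, from Scnn1b, Scnn1g, Cftr, Aqp1, Aqp3, Aqp5 and Atp1b1, and in 35.7% of all promoters, many of which are poorer in G and C. The TEAD core GGAATG, the glucocorticoid receptor core TGTTCT and the forkhead core TGTTTAC, each searched on both strands, were found in 0 of these 7 windows and in 14.7%, 19.0% and 3.6% of all promoters. These are matches of letters within 300 bases only, and at such shares 0 of 7 windows is no sign of depletion. The promoters of Scnn1a and Aqp4 were not looked at.

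The sodium channel genes were also set against type 1 markers, which leaves the contrast between subunits as it was. The mean of 13 type 1 markers was 12.22 ± 0.08 in knockout and 11.85 ± 0.07 in control arrays (SD, n = 4 each), higher by 0.38. Set against that mean on the same array, Scnn1b was higher in knockout arrays by 0.52 (95% interval 0.36 to 0.69) and Scnn1g by 0.36 (0.23 to 0.49), each with exact permutation p = 0.0286, adjusted p = 0.04 over 7 such comparisons. Scnn1a was lower by 0.07 on that scale (−0.07, interval −0.25 to 0.12, exact permutation p = 0.486, also 0.486 adjusted), with overlapping groups. In control arrays Scnn1b averaged 10.48 and Scnn1g 11.45, against 11.91 for Scnn1a and 11.85 for the type 1 marker mean. Whether brighter probe sets show smaller differences was not tested, here or for the ratios between subunits. The comparison with marker means was added after the data were seen.

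Cftr encodes the chloride channel that is mutated in cystic fibrosis. It had the widest difference of the 9 genes. Its values were 8.31, 8.01, 8.01 and 7.27 in knockout arrays and 9.69, 9.67, 9.47 and 9.41 in control arrays. The highest knockout value was more than 1 log2 unit below the lowest control value, and knockout replicate 4 was lowest of all. Cftr fell 3.16-fold (−1.66, SE 0.183, adjusted p = 1.21e-04 in limma's test), and the difference lay between −1.80 and −1.45 when any 1 array was left out.

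The type 2 marker mean had the same extremes among knockout arrays, at 11.81, 11.58, 11.64 and 11.25 in knockout replicates 1 to 4, against 12.57, 12.62, 12.51 and 12.42 in control replicates 1 to 4. The fall of Cftr lay within the range of the 12 type 2 markers (−1.71 to −0.05), of which Cd36 fell slightly more (−1.71). It was also beyond their mean: relative to that mean Cftr was lower in knockout arrays by 0.70 (−0.70, 95% interval −0.92 to −0.48, exact permutation p = 0.0286, adjusted p = 0.04 over the 7 comparisons). In control arrays the type 2 marker mean was 12.53 and Cftr averaged 9.56, and whether probe sets so bright show smaller differences was not tested. The club cell marker mean, of secretory airway cells that can also hold Cftr, was 9.20 to 9.57 in knockout and 9.95 to 10.12 in control arrays, lower by 0.60 (−0.60), and its part in the fall of Cftr was not tested. Ionocytes, rare airway cells with very high Cftr, are marked by Foxi1, which read 6.91 ± 0.099 in knockout and 6.90 ± 0.153 in control arrays (SD, n = 4 each). Foxi1 was below the array medians of 7.21 to 7.30, and whether its probe set was above background is not known. Of 5 ionocyte markers 1 rose and 1 fell, so the list gave no single direction. The marker that fell, Atp6v1c2, and the one that rose, Atp6v0d2, are both proton pump subunits, named after their values were seen. The gene whose pattern over the 8 arrays was nearest to Cftr was Cd36, a fatty acid transporter and one of the type 2 markers used here (root mean square distance 0.086 log2 units after centring each gene).

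The Cftr promoter is shown because this gene changed most. Again capitals mark the GC boxes, which overlap in 1 run.
Cftr promoter, chr6:18170437-18170736 (+ strand): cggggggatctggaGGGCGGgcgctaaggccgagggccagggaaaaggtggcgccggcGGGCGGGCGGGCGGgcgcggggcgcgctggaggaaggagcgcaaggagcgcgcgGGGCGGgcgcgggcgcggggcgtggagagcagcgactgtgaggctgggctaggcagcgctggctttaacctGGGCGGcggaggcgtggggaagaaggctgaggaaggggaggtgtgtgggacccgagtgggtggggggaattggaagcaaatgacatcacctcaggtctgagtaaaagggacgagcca

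This window had 71.3% G and C, 31 CG pairs and 6 GC boxes, more boxes than any other member promoter looked at, where the others held 1 to 3.

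**Figure D3:**
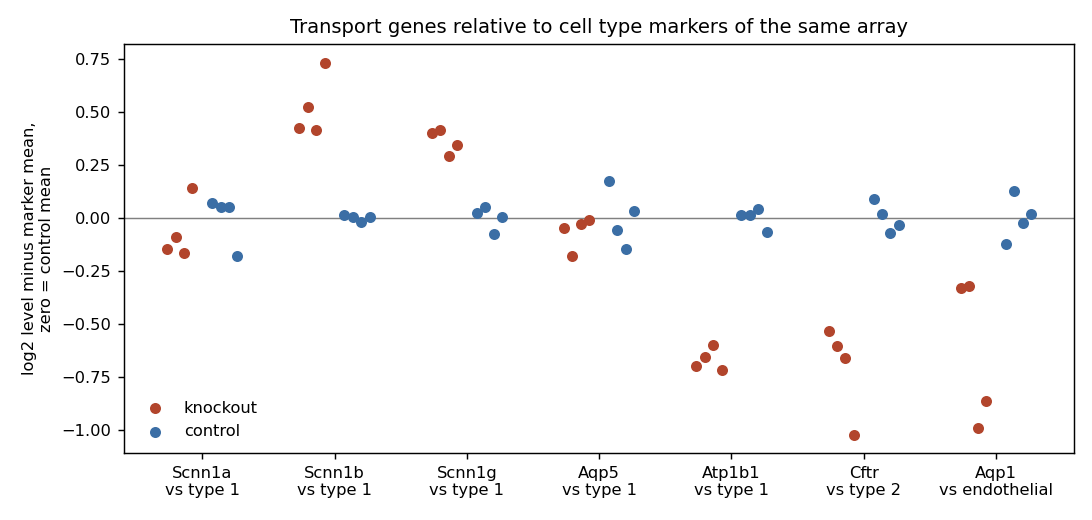
Log2 level of 7 transport genes minus the mean of a marker list on the same array, shifted so that the control mean is 0, with knockout points left of control points for each gene. Scnn1b and Scnn1g lie above the control points and Atp1b1, Cftr and Aqp1 below them, while Scnn1a and Aqp5 overlap.

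Atp1b1 encodes the beta 1 subunit of the Na,K-ATPase, the pump on the basolateral face that drives sodium out of the cell. It read 12.51, 12.52, 12.51 and 12.30 in knockout arrays and 12.79, 12.75, 12.71 and 12.76 in control arrays. The groups did not overlap, and 3 knockout arrays were nearly equal while replicate 4 lay below them. Atp1b1 fell 1.22-fold (−0.29, SE 0.064, adjusted p = 0.00905 in limma's test), a call that ended when the mesenchymal marker mean entered the fit (−0.22, adjusted p = 0.162). Against the type 1 marker mean the fall was 0.67 (−0.67, 95% interval −0.79 to −0.55, exact permutation p = 0.0286, adjusted p = 0.04). Atp1b1 lay fully lower and that mean fully higher in knockout arrays, so the groups had to separate on this scale. The permutation p-value is therefore no further test of Atp1b1.

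Among the aquaporins, Aqp5 was higher in knockout cells. It read 11.41, 11.25, 11.34 and 11.26 in knockout arrays and 11.20, 10.92, 10.78 and 11.11 in control arrays. The groups did not overlap, but control replicate 1 came close to the lowest knockout value. Aqp5 rose 1.24-fold (0.31, SE 0.090, adjusted p = 0.0344 in limma's test), close to the threshold: the call ended without any 1 of knockout replicates 1 to 3 or control replicates 2 and 3 (0.24 to 0.34, adjusted p = 0.0535 to 0.0879) and with each array centred on its median (0.30, adjusted p = 0.0574). Relative to the type 1 marker mean it differed by −0.07 (95% interval −0.23 to 0.10, exact permutation p = 0.457, 0.486 adjusted).

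Aqp1 did not pass. It read 11.45, 11.45, 10.87 and 11.01 in knockout arrays and 11.41, 11.57, 11.37 and 11.75 in control arrays. Knockout replicates 1 and 2 lay within the control range and replicates 3 and 4 below it. The difference was −0.33 (SE 0.140, 95% interval −0.64 to −0.02, adjusted p = 0.14 in limma's test). Against the endothelial marker mean, which was higher in knockout arrays by 0.30, Aqp1 was lower by 0.63 (−0.63, interval −0.95 to −0.31, exact permutation p = 0.0286, adjusted p = 0.04 over the 7 comparisons). Without any 1 of the 4 control replicates this comparison did not pass (−0.67 to −0.58, unadjusted exact permutation p = 0.0857). Cdh5, the endothelial cadherin, averaged 10.58 in knockout and 10.43 in control arrays. Of 6 erythroid markers, measured because red cells also carry Aqp1, 0 rose and 1 fell, and the one that fell, Tfrc, named after its value was seen, is the transferrin receptor of dividing cells in general.

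Aqp3, a water and glycerol channel of basal airway cells, read 6.74, 6.83, 6.88 and 6.94 in knockout arrays and 6.94, 6.80, 6.88 and 6.82 in control arrays. These ranges coincide almost fully, and the difference was −0.02 (SE 0.063, 95% interval −0.15 to 0.12, adjusted p = 0.909 in limma's test). The mean of 7 basal cell markers was 7.45 to 7.60 in knockout and 7.13 to 7.29 in control arrays, higher by 0.28, and 3 of the 7 rose: Krt15 (1.05, adjusted p = 0.00192 in limma's test), Krt14 (0.35) and Itgb4 (0.28). The defining markers Krt5 and Trp63 did not pass, at 6.71 and 6.67 in knockout arrays and 6.60 and 6.65 in control arrays. Aqp3 was below the array medians of 7.21 to 7.30, and whether its probe set was above background there is not known.

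Aqp4, the water channel best known from brain astrocytes, read 7.83, 7.93, 7.47 and 7.65 in knockout arrays and 7.66, 7.82, 7.53 and 7.91 in control arrays. The groups overlapped throughout, with a difference of −0.01 (SE 0.111, 95% interval −0.25 to 0.24, adjusted p = 0.977 in limma's test). The sign of so small a difference has no weight, and it turned under 6 of 18 alternatives for Aqp4 and 2 of 17 for Aqp3.

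Between aquaporins, the log ratio of Aqp5 to Aqp1 was higher in knockout arrays by 0.64 (95% interval 0.32 to 0.97), that of Aqp4 to Aqp1 by 0.32 (0.17 to 0.47) and that of Aqp5 to Aqp3 by 0.33 (0.11 to 0.55). In these 3 pairs the groups did not overlap (exact permutation p = 0.0286, adjusted p = 0.0514 over the 9 pairs), and limma's test of the log ratios gave adjusted p = 0.0106, 0.00694 and 0.0412. The other 3 aquaporin pairs had overlapping groups and adjusted p from 0.0735 to 0.886 by the exact permutation test. Aqp5 lies between Aqp2 and Aqp6 on chromosome 15, and Aqp3 next to Aqp7 on chromosome 4. These neighbours, of which Aqp2 and Aqp6 are named after their values were seen, did not pass: Aqp2, the water channel of the kidney collecting duct, differed by −0.15 (SE 0.084), Aqp6, an intracellular family member, by −0.14 (SE 0.108), and the aquaglyceroporin Aqp7 by −0.13 (SE 0.075).

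For the other called members, the genes with the nearest pattern over the 8 arrays were Eps8l2 for Scnn1b (root mean square distance 0.085), Fam174b for Scnn1g (0.047), Panx1 for Scnn1a (0.043), Prkd1 for Aqp5 (0.040) and Il6st for Atp1b1 (0.029). With 19938 genes and 8 arrays such likeness is a description only.

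The wider pathway was followed in 6 lists of 100 genes in all, of which 92 were measured. These lists too were chosen with earlier results of these data known, so their shares are descriptions only. In them 5 genes were higher and 17 lower in knockout cells and 70 were not called, so 23.9% were called, near the 18.8% of all genes. The median difference was −0.05.

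Of 24 regulators of the sodium channel measured, 0 rose and 4 fell (median −0.06), so 16.7% were called, near the 18.8% of all genes. The largest difference was that of Tmprss4, a membrane serine protease able to activate the channel, at 7.27, 6.89, 6.98 and 7.28 in knockout arrays and 7.85, 8.57, 8.36 and 7.96 in control arrays. It fell 2.11-fold with no overlap (−1.08, SE 0.156, adjusted p = 6.62e-04 in limma's test). The kinases Stk39, which acts on chloride cotransporters, and Wnk4, which acts upstream of it, fell by smaller amounts (−0.40, SE 0.066, and −0.30, SE 0.071), as did Usp2, a deubiquitinase named after its value was seen (−0.28, SE 0.077), whose call ended without any 1 of knockout replicates 1 to 3 or control replicates 3 and 4 (−0.28 to −0.25, adjusted p = 0.0636 to 0.0849 in limma's test). The Wnk4 call ended with the mesenchymal marker mean in the fit (−0.34, adjusted p = 0.063 in limma's test). Without knockout replicate 4 there was 1 rise, in the protease Tmprss2, named after its value was seen (0.30, adjusted p = 0.00936 in limma's test). Members with well known parts in channel turnover did not pass, among them Nedd4l, the ubiquitin ligase that removes the channel (−0.15, SE 0.067), Sgk1, the kinase that opposes it (0.11, SE 0.099), and Prss8, a channel-activating protease (−0.16, SE 0.086), all 3 named after their values were seen.

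Of 10 other subunits and partners of the sodium pump 0 passed in limma's test, where 18.8% of all genes were called. Their differences ran from −0.11 to 0.20, with a median of 0.01. The Fxyd proteins are small pump regulators, and the 3 members with the smallest p were Fxyd6 (0.20, SE 0.104, adjusted p = 0.251), Fxyd3 (0.17, SE 0.100, adjusted p = 0.291) and Fxyd1 (−0.11, SE 0.127, adjusted p = 0.631). Of these 10, 0 had an unadjusted p under 0.05, and leaving out knockout replicate 4 gave 1 call, Fxyd1 (−0.26, adjusted p = 0.0255).

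Of 23 chloride transport genes 2 rose and 3 fell (median −0.03), so 21.7% were called, near the 18.8% of all genes. Slc26a9, an epithelial chloride channel that interacts with Cftr, read 10.15, 9.79, 9.80 and 9.34 in knockout arrays and 11.74, 11.72, 11.61 and 11.21 in control arrays. It fell 3.49-fold (−1.80, SE 0.164, adjusted p = 4.22e-05 in limma's test), with knockout replicate 4 lowest as for Cftr. Ano1, the calcium-activated chloride channel, rose 1.46-fold, at 11.80, 11.63, 11.85 and 11.65 in knockout arrays and 11.36, 11.02, 11.13 and 11.24 in control arrays (0.55, SE 0.084, adjusted p = 9.89e-04). Slc12a4, a potassium chloride cotransporter of cell volume control, rose 1.49-fold (0.58, SE 0.057, adjusted p = 6.27e-05 in limma's test). The other falls, named after their values were seen, were those of P2ry2, a receptor for nucleotides (−0.46, SE 0.100), and Ano10, a relative of Ano1 (−0.33, SE 0.092). Both calls ended with the mesenchymal marker mean in the fit (−0.38, adjusted p = 0.131, and −0.20, adjusted p = 0.378 in limma's test). The Ano10 call ended without any 1 of control replicates 1 to 3 (−0.34 to −0.29, adjusted p = 0.0562 to 0.0794 in limma's test) and with adjustment over all probe sets (adjusted p = 0.0572). Slc12a2, the cotransporter that loads chloride for secretion, did not pass (−0.04, SE 0.073), and it too was picked after its value was known.

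Among potassium channel genes 8 of 16 were called, 2 higher and 6 lower in knockout cells (median −0.15), where 18.8% of all genes were called. Kcnj15, an inward rectifier channel, fell 2.51-fold, at 9.76, 9.74, 9.60 and 9.29 in knockout arrays and 11.06, 10.99, 10.88 and 10.78 in control arrays (−1.33, SE 0.106, adjusted p = 2.05e-05 in limma's test). Kcne2, an accessory subunit of Kcnq1, fell 1.85-fold (−0.89, SE 0.091), and Kcnq1 itself, a basolateral channel of secreting epithelia named after its value was seen, fell as well (−0.56, SE 0.097). Kcnk2, a channel of the stretch-sensitive K2P family, rose 1.79-fold (0.84, SE 0.084, adjusted p = 6.96e-05 in limma's test). The second rise was that of Abcc9, a regulatory subunit of ATP-sensitive channels named after its value was seen (0.43, SE 0.107). That call ended without control replicate 1 (0.39, adjusted p = 0.0510 in limma's test). It also ended with the mesenchymal (0.18, adjusted p = 0.341) or endothelial marker mean (0.26, adjusted p = 0.727) in the fit. Kcnma1, a dim gene named after its value was seen, fell from 5.38 in control to 5.09 in knockout arrays (−0.29, SE 0.083). Its call ended without any 1 of knockout replicates 2 and 3 or control replicates 1 to 3 (−0.30 to −0.23, adjusted p = 0.0589 to 0.0951 in limma's test). It also ended with the replicate block (adjusted p = 0.0616) and with adjustment over all probe sets (adjusted p = 0.0584).

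The acid and bicarbonate list of 11 genes had 1 rise and 3 falls (median −0.01), so 36.4% were called, against 18.8% of all genes. Car8, a carbonic anhydrase relative without enzyme activity, read 8.97, 8.14, 8.09 and 7.72 in knockout arrays and 10.71, 11.02, 10.83 and 10.78 in control arrays. It fell 6.09-fold (−2.61, SE 0.210, adjusted p = 2.22e-05 in limma's test), with knockout replicate 1 nearest to the control arrays. Car4, a membrane-bound carbonic anhydrase also known from lung capillaries, read 10.40, 11.12, 10.22 and 10.72 in knockout arrays and 8.18, 8.66, 8.60 and 9.50 in control arrays. It rose 3.69-fold (1.88, SE 0.261, adjusted p = 5.30e-04 in limma's test), and with the endothelial marker mean as a covariate the difference was 1.25 (adjusted p = 0.244). Slc4a4, the sodium bicarbonate cotransporter, fell 1.31-fold (−0.39, SE 0.062, adjusted p = 0.0014 in limma's test), and Car2, a cytosolic carbonic anhydrase named after its value was seen, fell too (−0.50, SE 0.146, adjusted p = 0.0366). The Car2 call ended without knockout replicate 2 or any 1 of the 4 control replicates (−0.54 to −0.46, adjusted p = 0.0508 to 0.0904 in limma's test), with each array centred on its median (adjusted p = 0.0528) and with adjustment over all probe sets (adjusted p = 0.0708).

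The 8 other aquaporins had 0 rises and 1 fall (median −0.14), so 12.5% were called, against 18.8% of all genes. The one that fell was Aqp11, an aquaporin of the endoplasmic reticulum, at 6.43, 6.47, 6.24 and 6.39 in knockout arrays and 6.65, 6.95, 6.66 and 6.68 in control arrays (−0.35, SE 0.082, adjusted p = 0.0123 in limma's test). The Aqp11 call ended with the mesenchymal marker mean in the fit (−0.27, adjusted p = 0.192 in limma's test). Aqp8, a channel of digestive epithelia, differed by −0.17 (SE 0.087) and did not pass.

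**Figure D4:**
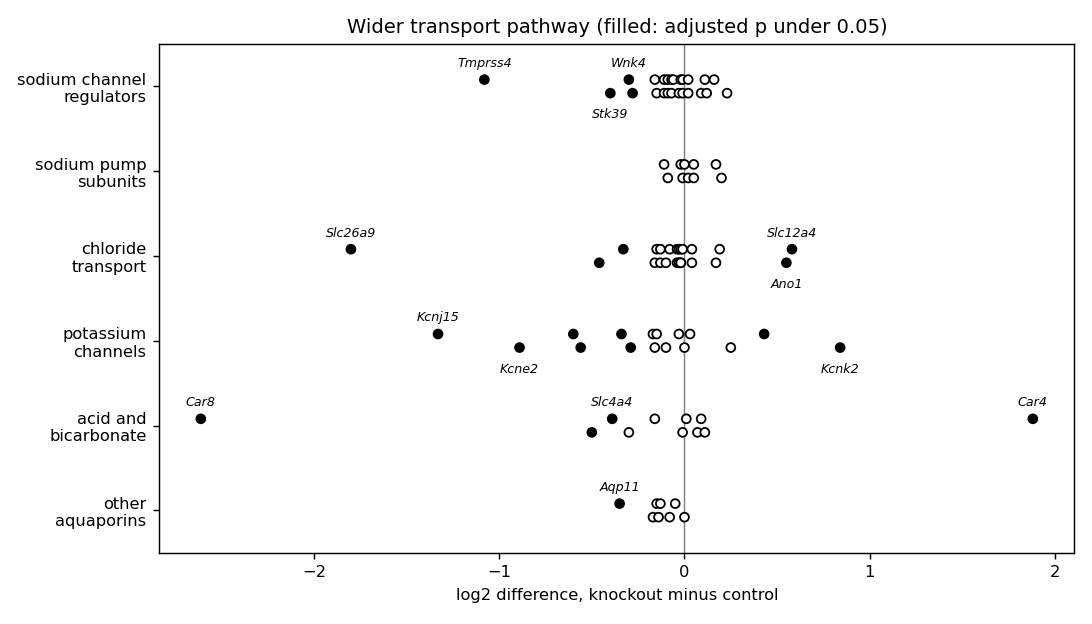
Log2 difference, knockout minus control, of each measured gene in the 6 pathway lists, 1 point a gene; filled points passed at an adjusted p under 0.05, and the 3 genes with the smallest p of each list are named where they passed. Called genes of the chloride, potassium and acid lists lie on both sides of 0, and no point of the sodium pump list is filled.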

How the data were processed

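The table deposited by the authors holds log2 expression of 35556 probe sets on 8 arrays. The log2 scale was read from the values (2.89 to 13.95), and how the authors normalized the arrays is not given in the sources used here. Since all arrays already shared nearly the same distribution (largest departure 0.17 at any rank), none was rescaled, and a change in total RNA per cell cannot be seen. Gene symbols came from the platform's GEO annotation, in which 21789 probe sets have 1 symbol, 1621 several and 12146 none given. Taking the brightest probe set of each gene gave 19938 genes.

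The groups were compared in limma 3.58.1 under R 4.3.3 (lmFit, then eBayes), two-sided, with no covariate and p-values adjusted by Benjamini-Hochberg over all genes (threshold 0.05). The fit was tested on simulated data. Errors of group means are SDs over 4 arrays, a number that limits the precision. Log ratios of members were compared by exact permutation over all 70 assignments of the arrays. The members and lists were chosen with earlier results of these data known. Named genes are the members, the 3 genes of smallest p in each pathway list and the gene nearest in pattern to each called member, with marker genes beside them, and any other name is said to follow its value. The alternatives were a replicate block, 2 normalizations, a filter on dim genes, adjustment over all probe sets, a trended robust spread, array weights, leaving out arrays, and marker means as covariates.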

Additional observations from a re-analysis of the deposited data

Results flagged for a closer look

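In 54 groups of 4 arrays, over the 9 transport genes and the named pathway genes, 2 held a value far from the other 3, where chance gives about 1 in 20. Atp1b1 read 12.30 in knockout replicate 4, against 12.51 to 12.52 in the other knockout arrays. The same array had the lowest Cftr (7.27) and the lowest type 2 marker mean (11.25), and its array weight in limma was the lowest, at 0.32. Without it Atp1b1 differed by −0.24 (adjusted p = 0.0103 in limma's test). Aqp11 read 6.95 in control replicate 2, against 6.65 to 6.68 in the other control arrays, and without that array its difference was −0.28 (adjusted p = 0.0225).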

How the results depend on the processing

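The directions of the 6 called transport genes held under all 18 alternatives, and only Scnn1b kept its call in every one. When any 1 array was left out the number of risen members was 3 to 4 and of fallen members 2, and the pathway genes gave ranges of 5 to 6 risen and 13 to 18 fallen, and all genes gave 2766 to 3978 calls. Without knockout replicates 1 and 4 together 2 members rose. With the mean of the mesenchymal markers in the fit 1 member fell, 11 pathway genes fell and 1776 genes were called in all. The pathway genes Wnk4, P2ry2, Ano10, Kcnma1, Abcc9, Car2 and Aqp11 lost their calls in that fit (adjusted p = 0.063 to 0.444 in limma's test). The endothelial marker mean separated the groups fully, and as a covariate it left 1 member risen and 0 fallen, 2 pathway genes risen and 5 fallen, and 410 calls among all genes, of which 32.7% were higher in knockout against 45.8% without it. Under it Scnn1g (0.67, adjusted p = 0.0579), Cftr (−1.35, adjusted p = 0.0821), Scnn1a (0.39, adjusted p = 0.192), Atp1b1 (−0.28, adjusted p = 0.401) and Aqp5 (0.08, adjusted p = 0.938) lost their calls. The labels do not say that a replicate number marks a shared litter or day, same-numbered arrays deviated from their group means with correlations of −0.08 to 0.10, and 1 of 8 arrays correlated best with their own number. The replicate block changed no call among the members, with Aqp5 at 0.31 (adjusted p = 0.0317) and 3494 calls over all genes. The sign of Aqp4 turned with array weights (0.06), with the mesenchymal covariate (0.09) and without knockout replicate 3 or 4 or control replicate 2 or 4, ranging from −0.08 to 0.08 when 1 array was left out. That of Aqp3 turned without knockout replicate 1 or control replicate 1 (range −0.05 to 0.02). The log ratio of Aqp4 to Aqp3 turned without knockout replicate 1 or 2 or control replicate 1 or 3 (range −0.07 to 0.10). The sign of Fxyd6 turned with the mesenchymal (−0.01) and endothelial (−0.09) covariates. The arrays carry no detection call, so whether dim probe sets were above background is not known.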
